A study of Mus musculus with 60 samples.

Results

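10 genes of 3 linked cytokine systems were followed in mouse Kupffer cell preparations: the ligands Tnf, Il6, Osm, Lif and Il10, the receptor chains Tnfrsf1a, Tnfrsf1b, Il6ra and Il10ra, and the feedback inhibitor Socs3. They were chosen by gene symbol, all 10 were found among the 24411 genes of the deposited count table, and 9 of the 10 passed the filter on low counts that left 9001 genes for testing. Lif was the member below that filter. Kupffer cells are the resident macrophages of the liver. 3 groups of 5 C57BL/6J mice, 8 weeks old, were compared 12 h after 1 injection: Trem1-deficient mice given carbon tetrachloride (CCl4, a solvent toxic to hepatocytes), wild-type (WT) mice given CCl4, and WT mice given corn oil. CCl4 was given at 2 µl per g in corn oil, so every mouse received oil. Trem1 codes for a receptor that activates neutrophils, monocytes and macrophages. The labels do not say which part of the gene the mutation took out, and the groups include no oil-treated Trem1-deficient mice. Cells were depleted with CD11b beads, selected with F4/80 beads and sequenced as 3' tags. In these a transcript counts once whatever its length, so levels need no correction for length. Other differences between genes in capture or counting were not tested.

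TNF is made by macrophages as a membrane protein, is shed by a protease, and signals through the receptors TNFR1 (Tnfrsf1a) and TNFR2 (Tnfrsf1b). Interleukin-6, oncostatin M (Osm) and leukemia inhibitory factor (Lif) share the receptor chain gp130 (Il6st), which works through JAK kinases and STAT3 and induces Socs3, an inhibitor of gp130 itself. Interleukin-10 also works through STAT3, by its receptor chains Il10ra and Il10rb, and restrains cytokine production by macrophages, while Kupffer cell TNF and interleukin-6 are known for their part in liver injury and regeneration.

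The libraries held 812320 to 2593004 gene counts, and the upper limit for a gene without any count in a library (3 counts) lay between 1.00 and 4.15 CPM, the TMM-scaled count normalised to library size. Trem1 was 4.29 ± 4.09 CPM in Trem1-deficient, 348 ± 167 CPM in WT CCl4 and 54.0 ± 31.4 CPM in WT oil libraries (SD, n = 5 each), with a log2 fold change of -6.33 ± 0.65 in Trem1-deficient against WT CCl4 libraries (edgeR adjusted p = 7.62e-07). The Kupffer cell marker Clec4f was present in every group, at 1259 ± 263, 268 ± 178 and 2261 ± 644 CPM in the same order of groups. The sum of 15 Kupffer cell markers was 49345 to 60548 CPM in Trem1-deficient, 6000 to 22745 CPM in WT CCl4 and 35477 to 68370 CPM in WT oil libraries. Of these 15 markers, 12 were lower in WT CCl4 than in WT oil libraries and 11 were higher in Trem1-deficient than in WT CCl4 libraries (edgeR adjusted p under 0.05). The sum of 10 neutrophil markers, all with counts in each group, was 395 to 3265, 1234 to 11185 and 225 to 1757 CPM, and that of 10 monocyte markers, likewise all with counts, 776 to 1590, 2763 to 5213 and 587 to 1442 CPM. Of 15 hepatocyte markers, all with counts, the sum was 1538 to 16442, 12956 to 37799 and 3220 to 16079 CPM. The CD11b beads bind a protein that neutrophils and monocytes carry. In bulk RNA, fewer cells of a type and less RNA per cell cannot be told apart. All mice are labelled male, yet the 7 libraries of 1 series of index numbers in the column names (15 to 87 in steps of 12; WT oil mice 1 to 5 and Trem1-deficient mice 1 and 2) held 72 to 1552 Xist counts and 0 to 7 Y-linked counts, and the 8 of the other series (4 to 88 in steps of 12; WT CCl4 mice 1 to 5 and Trem1-deficient mice 3 to 5) held 1 to 31 Xist and 134 to 425 Y-linked counts. Treatment of WT mice therefore cannot be told apart from index series and these transcripts.

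Osm, at chr11:4236420-4241026 on the plus strand (GRCm38), was the member that changed in 2 of the comparisons. Its level in Trem1-deficient mice 1 to 5 was 50.1, 11.5, 23.5, 10.6 and 0 CPM. In WT CCl4 mice it was 31.2, 173, 75.4, 385 and 246 CPM, and in WT oil mice 2.82, 8.76, 5.00, 1.92 and 8.60 CPM. The WT oil values rest on 3, 7, 7, 2 and 18 counts, so the size of a fold over them is uncertain. Those of mice 1 and 4 lie at and below the 3-count floor of their libraries. Every WT CCl4 library stood above every WT oil library, whereas 1 Trem1-deficient library, that of mouse 1, reached into the WT CCl4 range. Osm was 32.9-fold higher in WT CCl4 than in WT oil libraries (log2 fold change 5.04 ± 0.91 SE, edgeR adjusted p = 6.80e-04). It was 9.39-fold lower in Trem1-deficient than in WT CCl4 libraries (log2 fold change -3.23 ± 0.82, edgeR adjusted p = 0.0304). Between Trem1-deficient and WT oil libraries the log2 fold change was 1.81 ± 0.82 (edgeR adjusted p = 0.961). These comparisons share libraries, so they are not separate evidence.

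Osm was the only one of the 9 tested members to pass in either comparison. Of all genes tested, 5.13% passed in WT CCl4 against WT oil libraries, 3.04% as higher and 2.09% as lower. For Trem1-deficient against WT CCl4 libraries the share was 2.06%, with 0.778% higher and 1.28% lower. For Trem1-deficient against WT oil libraries it was 0.233%, with 0.178% higher and 0.0555% lower, and 0 of the 9 members passed by edgeR or by DESeq2. There 3 members (Osm, Il10ra and Socs3) had an unadjusted edgeR p under 0.05, where genes at an unadjusted edgeR p of 0.0400 and 0.0554 ranked 362 and 455 of 9001. In WT CCl4 against WT oil libraries 4 members had such a p, and an unadjusted edgeR p of 0.0462 ranked 1641. In Trem1-deficient against WT CCl4 libraries 3 members had one, and an unadjusted edgeR p of 0.0444 ranked 1276. Non-overlapping groups were seen for Osm and Il6 among the 9 in WT CCl4 against WT oil libraries, where 6.58% of genes had them (3.13% with WT CCl4 higher and 3.44% with it lower). They were seen for no member in Trem1-deficient against WT CCl4 libraries (5.54% of genes, 3.42% higher and 2.12% lower) and for Socs3 alone in Trem1-deficient against WT oil libraries (2.9% of genes, 1.63% higher and 1.27% lower).

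**Figure D1:**
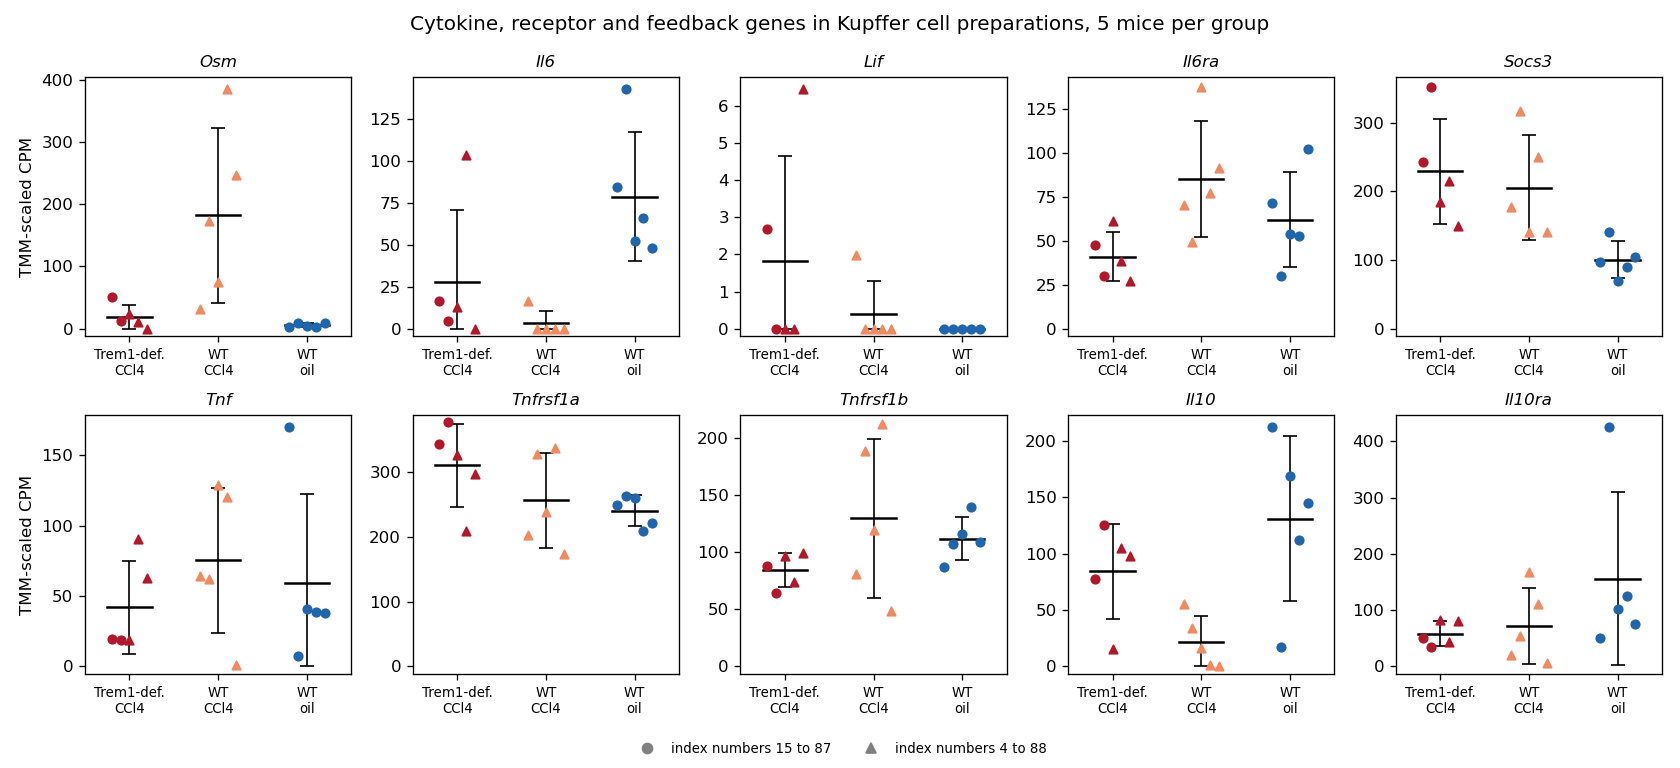
Levels of the 10 genes (vertical axes, TMM-scaled CPM) in the 5 mice of each group; horizontal lines are means, bars are SD cut off at 0, and the symbol gives the index series. The WT CCl4 points of Osm (31.2 to 385 CPM) lie above all WT oil points (1.92 to 8.76 CPM), and 4 of 5 WT CCl4 points of Il6 lie at 0.

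Osm was higher in WT CCl4 than in WT oil libraries past the threshold in all 21 alternatives run. Each WT group lay in 1 index series, so none of these alternatives can tell treatment of WT mice apart from series. The difference between Trem1-deficient and WT CCl4 libraries kept its direction in all 22 and stayed past the threshold in 12 of them. Within 1 index series, Trem1-deficient mice 3 to 5 (23.5, 10.6 and 0 CPM) all lay below the lowest WT CCl4 mouse at 31.2 CPM, with a log2 fold change of -3.96 and an edgeR adjusted p of 0.115. The call was lost with index series as a term (-3.98, edgeR adjusted p = 0.0636), with only these 2 groups in the fit (-3.23, 0.0762), and without single libraries. Without Trem1-deficient mouse 2, 3 or 4 the edgeR adjusted p was 0.0978, 0.0779 and 0.0832, and without WT CCl4 mouse 2, 4 or 5 it was 0.0550, 0.119 and 0.0533.

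Some markers of other myeloid cells and of hepatocytes changed in the direction of Osm between groups, while most hepatocyte and neutrophil markers passed in neither comparison. Beside the counts below, 3.04% of all genes tested passed as higher in WT CCl4 against WT oil libraries. As lower in Trem1-deficient against WT CCl4 libraries, 1.28% passed. Of 15 hepatocyte markers, 3 were higher in WT CCl4 than in WT oil libraries and 1 was lower in Trem1-deficient than in WT CCl4 libraries (edgeR adjusted p under 0.05). 3 of 9 tested neutrophil markers and 6 of 10 monocyte markers were higher in WT CCl4 than in WT oil libraries, and 1 and 3 of them were lower in Trem1-deficient than in WT CCl4 libraries (edgeR adjusted p under 0.05). Among Trem1-deficient mice, mouse 1 had the highest Osm and the highest neutrophil marker sum (3265 CPM), and mouse 5, with no Osm count, had the lowest sum (395 CPM). Among WT CCl4 mice, mouse 4 had both the highest Osm and the highest sum (11185 CPM), but mouse 5, second highest in Osm at 246 CPM, had the lowest sum (1234 CPM). After subtracting group means, Pearson's r between log2 Osm and the neutrophil marker sum was 0.66 over 15 libraries, which share their group and depth. It was 0.30 with the monocyte sum, 0.63 with the B cell, -0.26 with the hepatocyte and -0.50 with the Kupffer cell marker sum. S100a8 and S100a9 averaged 2283 and 2362 CPM of the mean neutrophil sum of 5824 CPM in WT CCl4 libraries, so they weigh most in it. The B cell sum, of 6 genes, was only 5.27 to 169 CPM. Tnfrsf1a (0.68), Socs3 (0.63) and Il10ra (0.61) followed the neutrophil sum about as closely as Osm did. The tested gene most like Osm by that measure was Mmp8, the neutrophil collagenase, at r = 0.90. Mmp8 is 1 of the 10 listed neutrophil markers, so it adds no separate evidence to their counts and sum. It was 29.0-fold higher in WT CCl4 than in WT oil libraries (edgeR adjusted p = 1.35e-04). In Trem1-deficient libraries it was 7.17-fold lower than in WT CCl4 libraries (edgeR adjusted p = 0.0244), and it is the 1 neutrophil marker counted as lower above. The part of neutrophil, monocyte or hepatocyte RNA in the Osm difference was not tested.

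**Figure D2:**
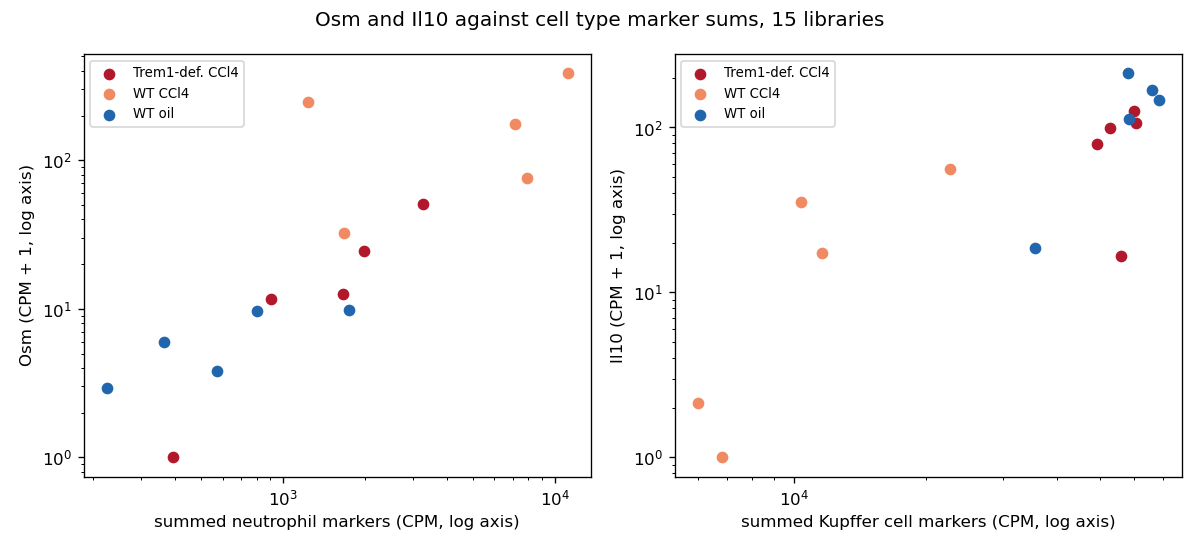
Osm against the sum of 10 neutrophil markers (left) and Il10 against the sum of 15 Kupffer cell markers (right), as CPM with 1 added to the gene, on log axes; each point is 1 of 15 libraries. 4 of 5 WT CCl4 libraries lie above all others in Osm, and all 5 lie left of the other groups on the Kupffer cell axis (6000 to 22745 CPM).

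Il6, at chr5:30013114-30019981 on the plus strand, had the opposite order of groups. It was 16.7, 4.40, 13.04, 104 and 0 CPM in Trem1-deficient mice, 16.6, 0, 0, 0 and 0 CPM in WT CCl4 mice and 84.6, 143, 52.2, 66.2 and 47.8 CPM in WT oil mice. All 5 WT CCl4 libraries lay below the lowest WT oil library, and 25 counts in mouse 1 were all that the WT CCl4 group held. A count of 0 in mice 2 to 5 allows up to 1.72 to 4.15 CPM. The fitted log2 fold change in WT CCl4 against WT oil libraries was -4.44 ± 1.35, and its edgeR adjusted p of 0.0543 missed the threshold. It was 2.92 ± 1.27 in Trem1-deficient against WT CCl4 libraries (edgeR adjusted p = 0.264) and -1.52 ± 1.17 in Trem1-deficient against WT oil libraries. Trem1-deficient mouse 4 alone, at 104 CPM, stood inside the WT oil range.

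The Il6 value for WT CCl4 against WT oil libraries sat near the threshold and crossed it in 7 alternatives. DESeq2 gave an adjusted p of 0.0414 and no filter on low counts an edgeR adjusted p of 6.63e-04. With only these 2 groups in the fit the edgeR adjusted p was 0.0481, and without Trem1-deficient mouse 4 or 5 it was 0.0390 and 0.0261. Without WT CCl4 mouse 1 the group had no Il6 count left. The edgeR adjusted p was then 0.00114 in that comparison and 0.00745 in Trem1-deficient against WT CCl4 libraries. With index series as a term the fitted value was -6.31 and did not pass. The summed Kupffer cell markers had the same order of groups as Il6, lowest in WT CCl4 libraries. Il6 per 10000 CPM of these markers is a ratio chosen after the values were seen. It was 4.71 ± 7.06 in Trem1-deficient, 1.46 ± 3.27 in WT CCl4 and 16.2 ± 13.8 in WT oil libraries (SD, n = 5 each). Mouse 1 alone, at 7.31, gave the WT CCl4 mean, and ranges were 0 to 17.1 in Trem1-deficient and 6.99 to 40.2 in WT oil libraries. This ratio has no test, and the other WT CCl4 mice had no Il6 count. The part of lower Kupffer cell marker RNA in the Il6 difference was not tested.

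The start of Il6 is shown because it carries letters of motifs bound by NF-kB and AP-1, factors of the TNF pathway, and that of Socs3 because it carries the letters of a STAT motif. The sequences are RefSeq's (GRCm38.p6), 250 bases before to 50 bases after the RefSeq start, 5' to 3' on the gene's strand, at chr5:30012864-30013163 (plus) for Il6 and chr11:117969317-117969616 (minus) for Socs3. Capitals mark the motif matches.
Il6: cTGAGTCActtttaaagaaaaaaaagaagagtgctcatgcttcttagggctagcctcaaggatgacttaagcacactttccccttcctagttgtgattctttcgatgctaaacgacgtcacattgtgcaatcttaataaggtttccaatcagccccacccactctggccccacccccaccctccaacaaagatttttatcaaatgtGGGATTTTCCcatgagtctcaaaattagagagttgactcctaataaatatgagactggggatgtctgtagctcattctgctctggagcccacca
Socs3: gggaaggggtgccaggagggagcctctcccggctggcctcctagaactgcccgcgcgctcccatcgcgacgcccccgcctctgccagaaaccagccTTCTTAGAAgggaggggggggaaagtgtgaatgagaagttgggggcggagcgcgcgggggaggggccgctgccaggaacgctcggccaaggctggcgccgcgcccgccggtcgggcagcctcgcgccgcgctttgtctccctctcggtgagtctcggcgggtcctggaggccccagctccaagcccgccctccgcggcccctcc
The Il6 window held GGGATTTTCC from 44 bases before the start, a match to the NF-kB motif GGGNNTTTCC, and TGAGTCA from 249 bases before it, a match to the AP-1 motif TGANTCA. The Socs3 window held TTCTTAGAA from 154 bases before its start, a match to the STAT motif TTCNNNGAA. Among the other members, the STAT letters were also found as TTCCGTGAA in Tnfrsf1a (244 bases before the start) and TTCCCGGAA in Tnfrsf1b (181), and the AP-1 letters as TGACTCA in Lif (228). Both strands were searched in the windows of the 7 members that had one, and no matches overlapped. By the GENCODE M21 gene positions, the whole windows of Socs3 and of Tnfrsf1a (chr6:125349473-125349772) lie inside the gene. Their STAT matches are thus before the RefSeq start but not before the GENCODE gene. Of 32851 RefSeq promoter windows, 1.63% held the NF-kB, 7.81% the AP-1 and 8.3% the STAT letters. The Tnf and Il6ra windows held none of the 3, which says only that these letters are not in those windows.

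Lif, at chr11:4257557-4272514 on the plus strand, 16530 bases from Osm, was nearly undetected. Its counts were 8, 0, 0, 0 and 11 in Trem1-deficient mice, 3, 0, 0, 0 and 0 in WT CCl4 mice and 0 in all 5 WT oil mice. Libraries with any count were thus 2, 1 and 0 of 5. The difference in mean log2(CPM + 1) was 0.64 between Trem1-deficient and WT CCl4 mice and 0.95 between Trem1-deficient and WT oil mice, each with a two-sided exact permutation p of 0.444. Between WT CCl4 and WT oil mice it was 0.32 with an exact permutation p of 1, where the smallest that 5 against 5 mice allow is 0.00794. Neither depth nor the spread between mice was tested as the limit for Lif.

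Among the receptor genes of the family, Il6ra (chr3:89864059-89913196, minus strand) encodes the chain that binds interleukin-6. Its level was 47.8, 30.1, 61.3, 38.4 and 26.95 CPM in Trem1-deficient mice, 70.5, 49.3, 137, 77.3 and 91.3 CPM in WT CCl4 mice and 71.4, 30.0, 53.6, 52.8 and 102 CPM in WT oil mice. Of the Trem1-deficient libraries, 4 of 5 lay below the lowest WT CCl4 library, and that of mouse 3 did not. For Il6ra the log2 fold change was 0.45 ± 0.54 in WT CCl4 against WT oil libraries (edgeR adjusted p = 0.724) and -1.05 ± 0.55 in Trem1-deficient against WT CCl4 libraries (edgeR adjusted p = 0.361). Il6ra overlaps the antisense gene Gm42809, and without a stated strand setting their reads cannot be told apart.

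Of 6 listed receptor genes of the family beside Il6ra, 5 were tested and 1, Lifr, rose in WT CCl4 against WT oil libraries, where 3.04% of all genes tested passed as higher. Lifr encodes the chain that pairs with gp130 for Lif. It was 140.0, 157, 131, 114 and 178 CPM in Trem1-deficient mice, 435, 108, 143, 144 and 255 CPM in WT CCl4 mice and 30.1, 65.1, 100.02, 117 and 85.1 CPM in WT oil mice. WT CCl4 and WT oil libraries overlapped between 108 and 117 CPM. The log2 fold change in WT CCl4 against WT oil libraries was 1.45 ± 0.44 (edgeR adjusted p = 0.0486), and the call was lost in 15 alternatives, with an edgeR adjusted p of 0.0544 to 0.751. Without WT CCl4 mouse 1, the library highest in Lifr, the log2 fold change was 1.02 (edgeR adjusted p = 0.149).

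Il6st, the shared chain gp130, and Stat3, its transducer, were chosen for description after their values were seen. Il6st was 217, 276, 245, 31.8 and 128 CPM in Trem1-deficient mice, 277, 149, 291, 107 and 1.38 CPM in WT CCl4 mice and 23.5, 46.3, 14.3, 39.4 and 44.9 CPM in WT oil mice. In each CCl4 group 1 library lay within or below the WT oil range, and the other 4 lay above it. The log2 fold change was 2.29 ± 0.72 in WT CCl4 against WT oil libraries (edgeR adjusted p = 0.0694) and 2.42 ± 0.73 in Trem1-deficient against WT oil libraries (edgeR adjusted p = 0.375), neither past the threshold. Without WT CCl4 mouse 5, at 1.38 CPM (1 count, in the least deep library), these adjusted p values were 0.00184 and 0.0168. Stat3 averaged 216 ± 62.0 CPM in Trem1-deficient, 341 ± 70.8 CPM in WT CCl4 and 169 ± 33.9 CPM in WT oil libraries. Its WT CCl4 libraries all lay above the WT oil libraries, with a log2 fold change of 1.01 ± 0.32 (edgeR adjusted p = 0.0583, and 0.00887 by DESeq2). Osmr, which encodes a chain that pairs with gp130 for Osm, was low, at 14.9 ± 11.4, 19.9 ± 33.8 and 3.93 ± 4.78 CPM, and passed in no comparison.

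**Figure D3:**
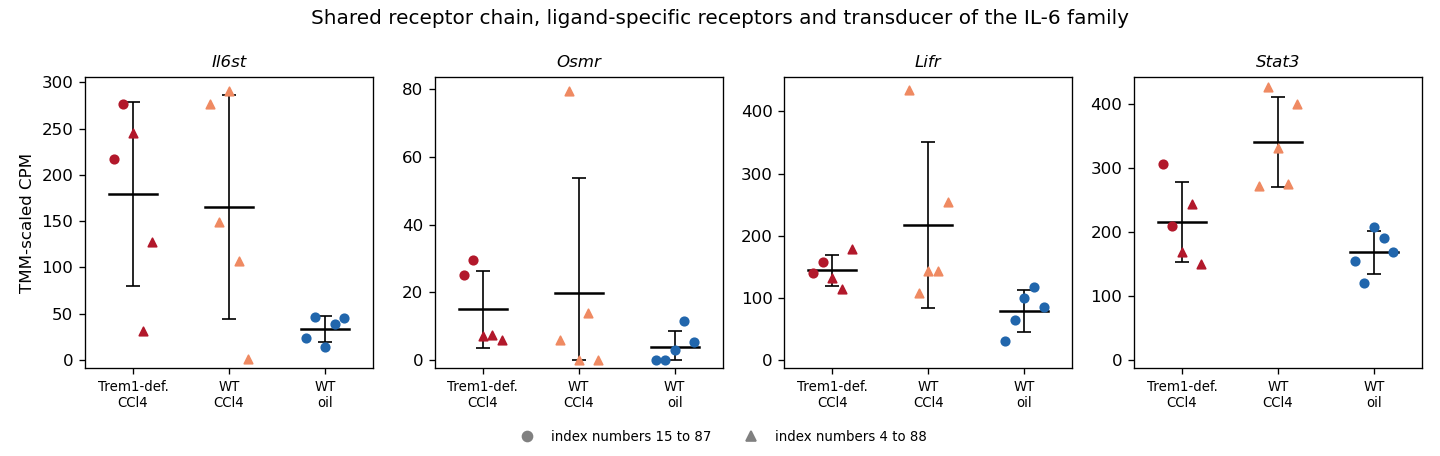
Il6st, Osmr, Lifr and Stat3 (vertical axes, TMM-scaled CPM) in the 5 mice of each group; lines are means, bars are SD cut off at 0, and the symbol gives the index series. The Stat3 points of WT CCl4 mice (272 to 427 CPM) lie above all WT oil points (120.2 to 209 CPM), while Il6st has 1 low point in each CCl4 group.

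Socs3, at chr11:117966079-117970047 on the minus strand, was 243, 352, 185, 215 and 149 CPM in Trem1-deficient mice, 177, 317, 141, 251 and 141 CPM in WT CCl4 mice and 97.7, 141, 69.3, 89.3 and 105 CPM in WT oil mice. Trem1-deficient libraries all lay above the WT oil libraries, and WT CCl4 libraries overlapped these at 141 CPM only. The log2 fold change in WT CCl4 against WT oil libraries was 1.03 ± 0.37 (edgeR adjusted p = 0.103), past the threshold by DESeq2 (1.08, adjusted p = 0.0325). Against WT oil, Trem1-deficient libraries had a log2 fold change of 1.19 ± 0.37 (edgeR adjusted p = 0.375). Against WT CCl4 they had one of 0.16 ± 0.36 (edgeR adjusted p = 0.893), which was -0.15 within 1 index series. Means were 229 ± 77.2 CPM in Trem1-deficient, 205 ± 76.8 CPM in WT CCl4 and 101 ± 26.5 CPM in WT oil libraries.

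Tnf, at chr17:35199381-35202007 on the minus strand, varied more within groups than between them. It was 19.4, 18.6, 18.7, 90.6 and 62.7 CPM in Trem1-deficient mice, 64.5, 62.4, 129, 120.2 and 1.38 CPM in WT CCl4 mice and 170.0, 7.51, 40.7, 38.4 and 38.2 CPM in WT oil mice. The highest of the 15 libraries was a WT oil library and the lowest a WT CCl4 library, and all groups overlapped. That lowest value, in WT CCl4 mouse 5, is 1 count, below the floor of its library (4.15 CPM), the least deep of the 15 (812320 gene counts). The log2 fold change was 0.36 ± 0.78 in WT CCl4 against WT oil libraries (edgeR adjusted p = 0.865) and -0.86 ± 0.78 in Trem1-deficient against WT CCl4 libraries (edgeR adjusted p = 0.665). With index series as a term the first of these was -1.23.

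The receptors of TNF varied less between mice than their ligand, with a coefficient of variation for Tnfrsf1a of 0.206 in Trem1-deficient, 0.287 in WT CCl4 and 0.0993 in WT oil libraries, beside 0.789, 0.683 and 1.08 for Tnf. For Tnfrsf1b it was 0.179, 0.536 and 0.170 in the same groups. Tnfrsf1a (chr6:125349362-125362484, plus strand), the member with the highest mean in every group, was 344, 379, 327, 209 and 298 CPM in Trem1-deficient mice, 203, 329, 239.6, 337 and 174 CPM in WT CCl4 mice and 249, 263, 260.0, 209 and 222 CPM in WT oil mice. Tnfrsf1b (chr4:145213463-145246870, minus strand) was 88.5, 64.02, 97.0, 74.3 and 99.6 CPM in Trem1-deficient mice, 81.1, 189, 119, 212 and 48.4 CPM in WT CCl4 mice and 87.4, 108, 116, 140.2 and 109 CPM in WT oil mice. Both overlapped between all groups, and the WT CCl4 libraries of Tnfrsf1b spread on either side of the others. Against WT CCl4, Trem1-deficient libraries had a log2 fold change of 0.28 ± 0.30 for Tnfrsf1a (edgeR adjusted p = 0.730) and -0.62 ± 0.44 for Tnfrsf1b (edgeR adjusted p = 0.537). In WT CCl4 against WT oil libraries it was 0.09 ± 0.30 and 0.22 ± 0.44 (edgeR adjusted p = 0.916 and 0.854).

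A pair of genes that govern the release of TNF are described next to it, the first past the threshold in 1 comparison and the second in none. Timp3, which inhibits the TNF-shedding protease encoded by Adam17, was 125, 162, 140.4, 54.7 and 170.5 CPM in Trem1-deficient mice, 183, 366, 198, 346 and 744 CPM in WT CCl4 mice and 82.7, 213, 40.7, 65.3 and 52.1 CPM in WT oil mice. It rose in WT CCl4 against WT oil libraries by a log2 fold change of 2.02 ± 0.46 (edgeR adjusted p = 0.00722), with 1 WT oil library inside the WT CCl4 range, and its adjusted p was 0.401 with index series as a term. All Trem1-deficient libraries lay below all WT CCl4 libraries, with a log2 fold change of -1.49 ± 0.45 that did not pass in edgeR (adjusted p = 0.0790) and passed in DESeq2 (adjusted p = 0.0227). Adam17, named after its values were seen, was 419 ± 138 CPM in Trem1-deficient and 197 ± 77.0 CPM in WT CCl4 libraries (log2 fold change 1.09 ± 0.37, edgeR adjusted p = 0.119).

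Il10, at chr1:131019845-131024974 on the plus strand, was lowest in WT CCl4 mice. It was 77.9, 126, 15.7, 105 and 97.8 CPM in Trem1-deficient mice, 55.2, 34.2, 16.2, 1.14 and 0 CPM in WT CCl4 mice and 212, 17.5, 169, 112 and 145 CPM in WT oil mice. Trem1-deficient mouse 3 and WT oil mouse 2 lay inside the WT CCl4 range, and the other 4 of each group lay above it. For Il10 the log2 fold change was -2.60 ± 0.84 in WT CCl4 against WT oil libraries (edgeR adjusted p = 0.0740) and 1.97 ± 0.83 in Trem1-deficient against WT CCl4 libraries (edgeR adjusted p = 0.244), neither past the threshold. In WT CCl4 against WT oil libraries the adjusted p was 0.0156 by DESeq2, and by edgeR 0.00185 with no filter on low counts, 0.0387 without WT oil mouse 2 and 0.0232 without WT CCl4 mouse 1. With no filter that in Trem1-deficient against WT CCl4 libraries was 0.0391.

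Il10 followed the Kupffer cell marker sum, with a Pearson's r of 0.81 over 15 libraries after subtracting group means, as a description. By the same measure r was -0.72 with the stellate cell and -0.65 with the B cell marker sum, which were only 43.3 to 482 and 5.27 to 169 CPM. In WT oil libraries Cd5l and C1qa averaged 19169 and 20683 CPM of the mean Kupffer cell sum of 57211 CPM, so they weigh most in it. WT oil mouse 2, low in Il10, had the lowest sum of its group (35477 CPM), whereas Trem1-deficient mouse 3, also low, had a sum of 56067 CPM. Per 10000 CPM of summed Kupffer cell markers, a ratio chosen after the values were seen, Il10 was 15.1 ± 7.12 in Trem1-deficient, 14.7 ± 14.2 in WT CCl4 and 21.5 ± 11.4 in WT oil libraries (SD, n = 5 each). The mean marker sum in the denominator was 55770 CPM in Trem1-deficient, 11491 CPM in WT CCl4 and 57211 CPM in WT oil libraries, which raises the ratio of any gene in WT CCl4 libraries. On it 7 of the 10 members (Osm, Tnf, Tnfrsf1a, Tnfrsf1b, Il6ra, Il10ra and Socs3) were highest in WT CCl4 libraries, so the ratio shows nothing particular to one of them. The Il10 means of Trem1-deficient and WT CCl4 libraries lay within 1 SD of each other on this ratio, which has no test, and the cell source of these transcripts was not tested.

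Il10ra, at chr9:45253837-45269149 on the minus strand, encodes the ligand-binding chain for interleukin-10. It was 50.5, 35.2, 83.0, 43.3 and 80.9 CPM in Trem1-deficient mice, 19.9, 54.4, 168, 112 and 6.92 CPM in WT CCl4 mice and 50.7, 426, 103, 126 and 75.5 CPM in WT oil mice. A single WT oil library at 426 CPM stood apart, and all groups overlapped. For Il10ra the log2 fold change was -1.10 ± 0.64 in WT CCl4 against WT oil libraries (edgeR adjusted p = 0.372), -0.30 ± 0.63 in Trem1-deficient against WT CCl4 libraries (edgeR adjusted p = 0.877) and -1.41 ± 0.64 in Trem1-deficient against WT oil libraries (edgeR adjusted p = 0.971). Il10ra overlaps the pseudogene Gm20612 and Mir7086, whose reads could be assigned to either. Its partner chain Il10rb averaged 148 CPM in Trem1-deficient, 77.8 CPM in WT CCl4 and 115 CPM in WT oil libraries and passed in no comparison.

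**Figure D4:**
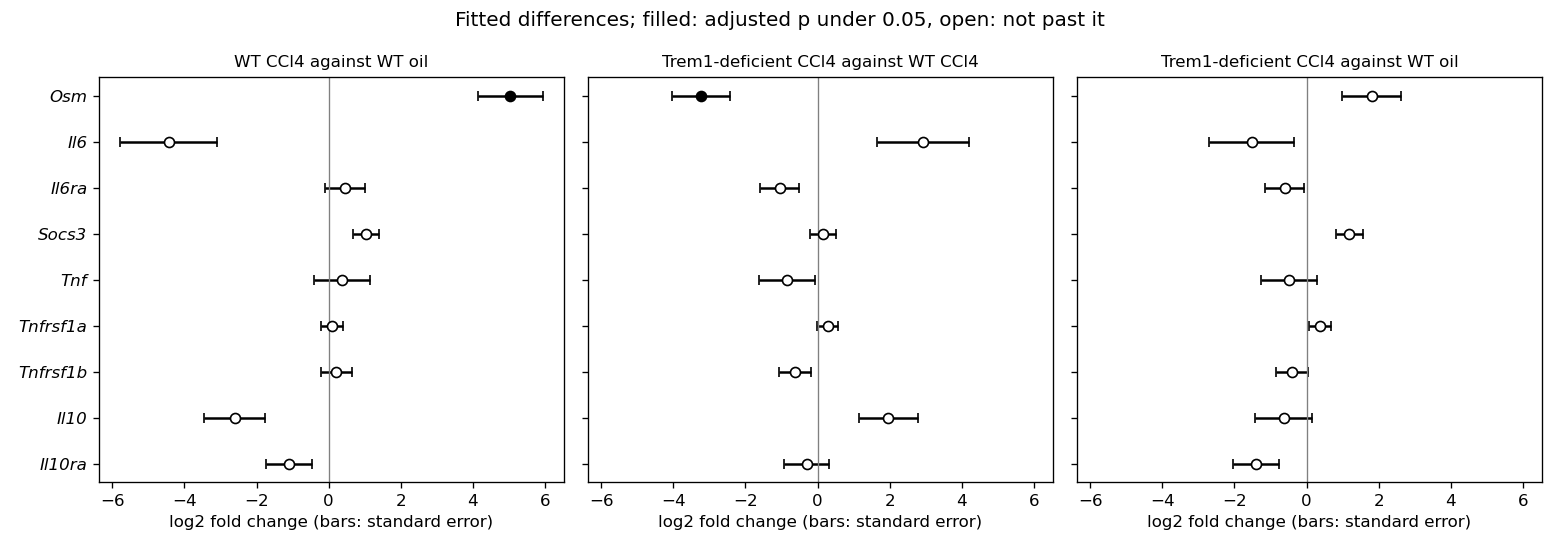
Fitted log2 fold changes (horizontal axes) with standard errors for the 9 tested genes in WT CCl4 against WT oil, Trem1-deficient CCl4 against WT CCl4 and Trem1-deficient CCl4 against WT oil libraries; filled points passed an edgeR adjusted p under 0.05. Only Osm is filled, at 5.04 and -3.23, and Il6 and Il10 lie on the other side of 0 from Osm in the first 2 panels.

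The wider list of 69 genes of the TNF, IL-6 and IL-10 pathways had 54 tested members. Lifr and Timp3 rose and none fell in WT CCl4 against WT oil libraries, so 2 of 54 passed beside 5.13% of all genes tested, a share near that background. None of the 54 passed in edgeR in Trem1-deficient against WT CCl4 libraries (2.06% of all genes) or against WT oil libraries (0.233%). The 13 tested genes of TNF receptor signalling, the 5 of NF-kB feedback, the 6 of the JAK-STAT group, the 8 of the SOCS and PIAS group and the 6 of the IL-10 response in macrophages had no member past the threshold in any comparison. The median log2 fold change over the 54 was 0.01 in WT CCl4 against WT oil, 0.05 in Trem1-deficient against WT CCl4 and 0.10 in Trem1-deficient against WT oil libraries, beside 0.06, -0.03 and 0.02 over all 9001 genes. For the 9 tested members it was 0.22, -0.30 and -0.50. Of the other IL-6 family ligands, Clcf1 alone was tested, at 2.03 CPM on average in Trem1-deficient, 46.1 CPM in WT CCl4 and 3.65 CPM in WT oil libraries, and passed in no comparison. Il19, Il20 and Il24, relatives of Il10, had no count in any library. Ptpn1, a phosphatase that acts on JAK kinases, was named after its values were seen. It averaged 865 ± 83.7 CPM in Trem1-deficient and 472 ± 57.8 CPM in WT CCl4 libraries without overlap (log2 fold change 0.88 ± 0.24, edgeR adjusted p = 0.0504, and 0.0198 by DESeq2).

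Within groups the members varied mostly apart from each other. Of 36 pairs of tested members, the highest Pearson's r of group-centred log2 levels over the 15 libraries was 0.72, for Tnfrsf1b with Il10ra, followed by 0.65 for Tnfrsf1a with Tnfrsf1b and 0.63 for Tnf with Il10. The 3 tested genes most like Tnf were Vma21 (r = 0.94), Hilpda (0.92), a protein of lipid droplets, and Tlr2 (0.91), a receptor for bacterial lipopeptides. Those most like Il10 were Znfx1 (0.93), Tmem165 (0.92) and Slc39a6 (0.92), and those most like Il6 were Prpsap1 (0.82), Dhodh (0.80) and Pla2g4a (0.80). After Mmp8, the genes most like Osm were Erp29 (0.88) and Satb1 (0.83). For Socs3 they were Paip1, Tspan4 and Rhbdd2 (0.85 to 0.88), and for Il6ra Gnb1, Ddx47 and Arf3 (0.79 to 0.85). For Il10ra they were Bdh1, Ate1 and Blcap (0.86 to 0.87), for Tnfrsf1a Ids, Bpgm and Crlf2 (0.86 to 0.89) and for Tnfrsf1b Foxn3, Tollip and Klhl24 (0.88 to 0.90). These are the highest of the correlations with all other tested genes, over libraries that share depth and composition, and serve as descriptions.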

How the data were processed

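Kupffer cell RNA of 15 mice was sequenced as 3' tags (Lexogen QuantSeq, per the labels' protocols), and the table holds 1 column per mouse for its 4 lane entries. The authors deposited raw counts of reads per gene. The submitters' processing notes list STAR 2.5.1a, Trimmomatic, Partek 6.6 and the build mm10. The counting's annotation and strand setting are not stated in the labels. The 4 tally rows (71.2 to 87.4% of reads) were left out. The mouse was the replicate. All 15 libraries entered 1 edgeR 4.0.16 fit in R 4.3.3 (TMM, filterByExpr, robust quasi-likelihood F-test, 12 residual degrees of freedom, biological coefficient of variation 0.888), with Benjamini-Hochberg adjustment over 9001 genes and a threshold of 0.05. Lif, below the filter, had an exact permutation test with a pseudocount of 1. Alternatives were DESeq2 1.42.0, its size factors in edgeR, no filter, mouse number as a block, 2 groups only, index series, and leaving out each mouse. Libraries of a group differed beyond sampling noise (chi-square of at least 10.2 per degree of freedom). Code was tested on simulated data. Floors cover counting error only. All members are named, then pathway genes past the threshold, up to 8 per comparison, and the 3 genes most like each member. Members and lists were chosen with earlier results of these data known. Positions are from GENCODE M21 and promoters from RefSeq (7 of 10 members matched; Osm, Il10 and Il10ra did not).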

Additional observations from a re-analysis of the deposited data

Results flagged for a closer look

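In 5 of 29 groups of values checked, 1 mouse of a group of 5 stood apart from the other 4 by more than the 95% limit of Dixon's gap test. Chance passes that limit in about 1 in 20 groups of normally distributed values. CPM values, skewed and with zeros, need not keep to that rate, and each flagged value was the highest of its group. Il6 was 104 CPM in Trem1-deficient mouse 4, where the next highest of its group was 16.7 CPM. In WT CCl4 mouse 1 Il6 was 16.6 CPM and Lif 1.99 CPM, where the other 4 mice had no count of either gene, so that any count would have met the limit, and the Lif value, 3 counts, lies at the floor of its own library. Tnf was 170.0 CPM in WT oil mouse 1 and 40.7 CPM in the next highest of that group. Il10ra was 426 CPM in WT oil mouse 2 and 126 CPM in the next highest. WT CCl4 mouse 1 also had the highest Kupffer cell marker sum of its group (22745 CPM), and WT oil mouse 2 the lowest of its own (35477 CPM). What sets these libraries apart was not tested.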

How the results depend on the processing

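Over the 9 tested members, 584 alternative values were computed, of which 549 kept both direction and side of the threshold, 10 lost the threshold, 14 passed it and 11 changed sign; none of the sign changes was of a called value. The count of changed genes depended on the settings. In WT CCl4 against WT oil libraries it was 462, and 1010 by DESeq2, 813 with no filter, 37 with index series as a term and 302 to 759 without single mice. In Trem1-deficient against WT CCl4 libraries it was 185, and 616 by DESeq2, 563 with no filter, 77 with index series as a term, 57 within 1 series and 87 to 508 without single mice. In Trem1-deficient against WT oil libraries it was 21, and 74, 73 and 11 under the first 3 of these settings and 12 to 31 without single mice. The count of changed members in WT CCl4 against WT oil libraries was 1, and 4 by DESeq2, 3 with no filter, 2 with only these 2 groups and 1 to 3 without single mice. In Trem1-deficient against WT CCl4 libraries it was 1, and 2 with no filter, 0 with only these 2 groups, with index series as a term or within 1 series, and 0 to 2 without single mice. Mouse numbers did not pair the mice (correlations of same-numbered mice -0.06 to 0.04). With mouse number as a replicate block, 2 members changed in WT CCl4 against WT oil libraries (Il6 with -6.47, edgeR adjusted p = 0.0130, beside Osm) and 0 in Trem1-deficient against WT CCl4 libraries (Osm -3.27, edgeR adjusted p = 0.126), and Il10ra changed sign there (0.23) as did Osmr (0.92). In Trem1-deficient against WT CCl4 libraries, other sign changes were Socs3 with index series as a term (-0.16), within 1 series (-0.15) and without single mice (-0.046 to 0.37), Il10ra without single mice (-0.57 to 0.27), Osmr without single mice (-0.80 to 1.55), and Il6st with index series (-0.29), within 1 series (-0.28) and without single mice (-0.17 to 0.43). In WT CCl4 against WT oil libraries they were Tnf (-1.23) and Tnfrsf1b (-0.027) with index series as a term, Tnfrsf1b without single mice (-0.030 to 0.39) and Tnfrsf1a likewise (-0.021 to 0.18). Tnf in Trem1-deficient against WT oil libraries was -0.99 to 0.41 without single mice, above 0 without WT oil mouse 1. The Lif difference between WT CCl4 and WT oil mice was 0 to 0.40, 0 being without WT CCl4 mouse 1, when no count was left. The cause of these changes was not tested, beyond the smaller number of mice in some fits. Lif kept direction and side of the threshold in the other alternatives.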
